A study of Mus musculus with 18 samples.

Results

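The Hox genes that the arrays measured were examined in the adipose depots of cold-exposed mice. They were the genes with a symbol of the form Hoxa to Hoxd plus a number for which at least 1 probe set, the group of probes that reads 1 transcript on an Affymetrix array, names that gene alone. Of the 39 Hox genes of the mouse, 33 met this rule, among 18193 genes measured, with 9 in the Hoxa, 9 in the Hoxb, 7 in the Hoxc and 8 in the Hoxd cluster. The other 6 were not analysed here. The 33 genes had 48 probe sets, and each gene was read from the probe set with the highest mean log2 intensity over the 18 arrays.

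Hox genes encode homeodomain transcription factors that lie in clusters, in the same order on the chromosome as their domains of expression along the head-to-tail axis of the embryo. Genes in matching positions of different clusters are called a paralogue group. Genes of low group number act toward the head and neck and those of high number toward the lumbar and sacral levels and the distal limbs, and adult mesenchymal cells, preadipocytes included, keep much of the pattern laid down in the embryo. Interscapular brown fat, inguinal fat and mesenteric fat lie at different levels of this axis, so the genes were set beside each other in the order of their groups, as groups 1 to 4, 5 to 8 and 9 to 13.

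Total RNA came from subcutaneous white adipose tissue of the inguinal depot (sWAT), mesenteric white adipose tissue (mWAT) and interscapular brown adipose tissue (BAT) of female Sv129 mice, 10 weeks old, kept for 10 days at 6°C, which drives thermogenesis, or at 28°C. The groups were sWAT at 6°C, sWAT at 28°C, mWAT at 6°C, mWAT at 28°C, BAT at 6°C and BAT at 28°C, with 3 arrays each and no genetic change in any of them. The mice were singly caged with free access to standard chow, and the methods call the 3 arrays of a group biological replicates, but the labels do not tell which arrays came from the same mouse. Arrays were placed by title, source name and description, which agree, whereas the tissue and temperature entries of the other characteristics contradict them for some arrays.

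The markers fitted the titles. Zic1, a transcription factor of interscapular brown fat, had log2 intensities of 2.81 to 3.74 in sWAT, 2.50 to 2.82 in mWAT and 9.67 to 9.93 in BAT, and the summed intensity of 7 adipocyte genes lay between 52572 and 75680 in the 18 arrays. RNA of other tissues was present to different degrees. The 10 mammary epithelial genes summed to 31443 to 65397 in sWAT, 2839 to 6163 in mWAT and 300 to 2772 in BAT. In mWAT the 7 genes of intestinal smooth muscle summed to 47070 to 74865 and the 9 neuronal genes to 14540 to 29039, against 3363 to 7097 and 681 to 1318 in the other depots. Lymphocyte genes summed to 26960 to 32188 in 4 mWAT arrays but to 1718 and 1807 in array 3 at 6°C and array 3 at 28°C, and array 2 of mWAT at 6°C had 105371 of exocrine pancreas genes. Skeletal muscle genes summed to 106523 and 84072 in arrays 2 and 3 of BAT at 28°C and 100702 in array 2 of sWAT at 28°C. In tissue RNA, fewer cells of a type and less RNA in each of these cells cannot be told apart.

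Promoter sequences are shown for genes of the Hoxa and Hoxd clusters that differed between the depots, Hoxa5, which was lower in sWAT than in either other depot, and Hoxa9, Hoxa10 and Hoxd10, which were higher in sWAT than in BAT. The windows are those of RefSeq on GRCm38.p6, 250 bases before to 50 bases after an annotated start, printed 5′ to 3′ on the strand of the gene, and a further Hoxa10 start is not shown. Capitals mark the motifs that were searched on both strands.
Hoxa5, chr6:52204538-52204837, minus strand: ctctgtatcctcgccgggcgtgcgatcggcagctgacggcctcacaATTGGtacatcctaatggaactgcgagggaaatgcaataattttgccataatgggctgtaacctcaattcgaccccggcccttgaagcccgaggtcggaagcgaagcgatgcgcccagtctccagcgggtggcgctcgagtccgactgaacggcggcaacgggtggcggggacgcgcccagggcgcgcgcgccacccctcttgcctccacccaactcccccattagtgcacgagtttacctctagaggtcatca
Hoxa9, chr6:52227321-52227620, minus strand: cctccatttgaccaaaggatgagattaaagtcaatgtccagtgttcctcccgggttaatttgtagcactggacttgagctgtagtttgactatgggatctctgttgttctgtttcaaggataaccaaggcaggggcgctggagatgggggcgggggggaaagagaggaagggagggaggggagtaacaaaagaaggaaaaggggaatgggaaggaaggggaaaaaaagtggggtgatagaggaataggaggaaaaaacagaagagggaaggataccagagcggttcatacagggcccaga
Hoxa10, chr6:52234890-52235189, minus strand: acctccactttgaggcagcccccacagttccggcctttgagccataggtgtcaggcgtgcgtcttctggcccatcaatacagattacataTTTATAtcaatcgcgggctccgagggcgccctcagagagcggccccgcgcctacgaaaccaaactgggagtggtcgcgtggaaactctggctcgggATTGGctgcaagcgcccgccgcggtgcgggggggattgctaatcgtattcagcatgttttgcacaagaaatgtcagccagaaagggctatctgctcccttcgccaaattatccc
Hoxd10, chr2:74691641-74691940, plus strand: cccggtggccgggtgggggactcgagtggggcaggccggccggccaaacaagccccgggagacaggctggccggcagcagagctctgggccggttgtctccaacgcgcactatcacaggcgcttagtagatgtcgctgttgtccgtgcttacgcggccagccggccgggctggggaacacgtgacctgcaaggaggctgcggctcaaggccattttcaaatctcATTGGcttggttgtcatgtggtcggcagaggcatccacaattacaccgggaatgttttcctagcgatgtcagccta

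The motifs were TATAAA (the TATA box), CCAAT (the binding site of the factor NF-Y), TTTATG (a site of the Cdx factors that regulate Hox genes in the embryo), TGATNNAT (a composite site of Pbx and Hox proteins) and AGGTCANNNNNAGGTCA (a retinoic acid receptor element). CCAAT or its complement stood in the windows of Hoxa5, Hoxa10 and Hoxd10, and the complement of TATAAA in that of Hoxa10, and these did not overlap. None of the motifs stood in the window of Hoxa9. Over the 21 windows of 19 measured Hox genes in the table, 12 held CCAAT, 2 TATAAA, 3 TTTATG, 3 TGATNNAT and 0 the receptor element, against 37.4%, 13.6%, 11.9%, 8.85% and 0.00913% of all 32841 windows of this length. The 4 windows shown held 29, 4, 21 and 22 CpG dinucleotides in the order printed, where the median was 15 over the Hox windows and 7 over all windows. A match describes the letters alone, and the probe sets do not tell which start was used.

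Levels of different probe sets depend on the affinity of their probes and do not rank genes, so signals were set only against the median of the arrays. Of the 33 genes, 21 had a group mean above the median intensity of the arrays in at least 1 group, and 12 in none (Hoxa2, Hoxa11, Hoxa13, Hoxb1, Hoxb7, Hoxb13, Hoxc13, Hoxd1, Hoxd3, Hoxd11, Hoxd12 and Hoxd13). In all 6 groups 10 genes were above it, among them Hoxd8, with log2 intensities between 10.72 and 11.56. The table gives no detection calls, so whether a signal below the median is above background is unknown.

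**Figure D1:**
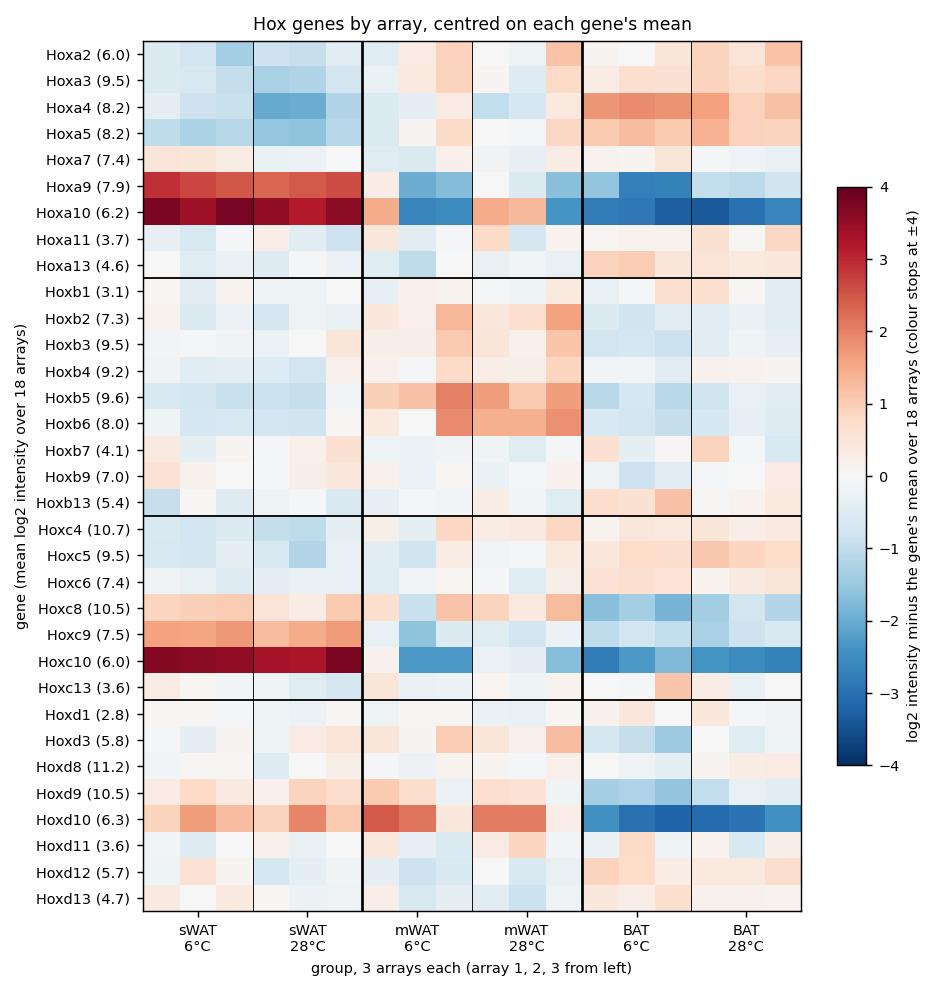
Log2 intensity of each of the 33 Hox genes on each of the 18 arrays, centred on the gene's mean over all arrays, with genes ordered by cluster and paralogue group and arrays by depot and temperature. Hoxa9, Hoxa10, Hoxc9 and Hoxc10 stand out in the 6 sWAT arrays, Hoxb5 and Hoxb6 in mWAT, Hoxa4 and Hoxa5 in BAT, and within mWAT array 3 differs from array 1 at both temperatures.

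sWAT differed from BAT in both directions along the clusters. At 6°C, 15 of 33 genes passed an adjusted p of 0.01 with limma, 7 higher and 8 lower in sWAT, and at 28°C 14 genes, 7 higher and 7 lower. Over all genes 26.8% passed at 6°C (13.4% higher and 13.4% lower) and 27.5% at 28°C (13% higher and 14.5% lower); the share of Hox genes that passed was larger at both temperatures. The same 12 genes passed in the same direction at both temperatures, in comparisons that share no arrays but share the estimate of each gene's spread. Of these, Hoxa9, Hoxa10, Hoxc8, Hoxc9, Hoxc10, Hoxd9 and Hoxd10 were higher in sWAT and Hoxa3, Hoxa4, Hoxa5, Hoxc4 and Hoxc5 lower. The median log2 difference of the 33 genes was -0.09 at 6°C and -0.21 at 28°C, against -0.09 and -0.08 over all genes.

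The genes higher in sWAT at both temperatures lay in groups 8 to 10. Hoxa10, which patterns the lumbar axis and the uterus, had log2 intensities of 10.00, 9.61 and 10.04 in sWAT at 6°C and 9.79, 9.41 and 9.82 at 28°C, against 3.44, 3.38 and 2.93 in BAT at 6°C and 2.86, 3.25 and 3.58 at 28°C. Every sWAT array was far above every BAT array. The difference was 6.63 (SE 0.98, adjusted p = 0.00014) at 6°C and 6.45 (SE 0.98, adjusted p = 0.00015) at 28°C, a 99.2-fold and an 87.1-fold ratio of intensities. Hoxc10, a gene of lumbar motor neurons and the hindlimb, had 9.69, 9.64 and 9.57 in sWAT at 6°C and 9.37, 9.31 and 9.80 at 28°C, against 3.23, 3.74 and 4.25 in BAT at 6°C and 3.64, 3.49 and 3.33 at 28°C. It differed by 5.89 (SE 0.53, adjusted p = 2.4e-06) at 6°C and 6.00 (SE 0.53, adjusted p = 1.3e-06) at 28°C. Their paralogue Hoxd10 had 7.23, 8.02 and 7.57 in sWAT at 6°C and 7.23, 8.29 and 7.40 at 28°C, against 3.92, 3.38 and 3.15 in BAT at 6°C and 3.28, 3.41 and 3.92 at 28°C. The depots did not overlap, and Hoxd10 differed by 4.12 at 6°C and 4.10 at 28°C (SE 0.53, adjusted p = 4.2e-05 and 3.5e-05).

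In group 9, Hoxa9, a regulator of blood progenitors and of the lumbar axis, had 10.81, 10.58 and 10.39 in sWAT at 6°C and 10.20, 10.34 and 10.50 at 28°C, against 6.31, 5.18 and 5.20 in BAT at 6°C and 6.92, 6.85 and 7.11 at 28°C. It was 5.03 higher at 6°C (SE 0.51, adjusted p = 5.8e-06) and 3.39 higher at 28°C (SE 0.51, adjusted p = 0.00013). Hoxc9, which sets thoracic motor neuron identity, differed less, by 2.55 at 6°C and 2.40 at 28°C (SE 0.28, adjusted p = 1e-05 and 1.3e-05), and Hoxd9 by 1.86 and 1.19 (SE 0.31, adjusted p = 0.00037 and 0.0082). Hoxb9 was not called, with 0.74 at 6°C and 0.12 at 28°C. The other genes of groups 9 to 13 had means below the array median in every group. Hoxa13 and Hoxb13 were called lower in sWAT at 6°C and Hoxd12 at 28°C, with differences of -1.29 to -0.91 and means of both depots at or below 6.37, and none of these was called at both temperatures. In groups 5 to 8 Hoxc8, of the brachial and thoracic levels, was higher in sWAT. Its arrays lay at 11.33, 11.40 and 11.48 in sWAT at 6°C and 10.97, 10.76 and 11.50 at 28°C, against 8.77, 9.11 and 8.58 in BAT at 6°C and 9.06, 9.73 and 9.28 at 28°C, a difference of 2.58 (SE 0.40, adjusted p = 0.00018) and 1.72 (SE 0.40, adjusted p = 0.0037). The call at 28°C was lost without array 1 or 3 of either group, with an adjusted p of 0.011 to 0.019.

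The genes lower in sWAT at both temperatures lay in groups 3 to 5 of the Hoxa and Hoxc clusters. Hoxa4, a gene of the cervical axis, had 7.87, 7.40 and 7.33 in sWAT at 6°C and 6.21, 6.26 and 7.03 at 28°C, against 10.00, 10.12 and 10.03 in BAT at 6°C and 9.88, 9.16 and 9.39 at 28°C. All BAT arrays were brighter than all sWAT arrays. The difference was -2.52 at 6°C (SE 0.34, adjusted p = 5.8e-05) and -2.98 at 28°C (SE 0.34, adjusted p = 1.1e-05). Hoxa5, needed for the respiratory tract and the cervicothoracic skeleton, had 7.23, 6.98 and 7.10 in sWAT at 6°C and 6.70, 6.62 and 7.11 at 28°C, against 9.29, 9.49 and 9.30 in BAT at 6°C and 9.64, 9.16 and 9.14 at 28°C. It was lower, with a difference of -2.26 at 6°C and -2.50 at 28°C (SE 0.29, adjusted p = 4.4e-05 and 1.5e-05). In both genes the depots were well apart on every array. Hoxc5 had 8.84, 8.75 and 9.11 in sWAT at 6°C and 8.87, 8.32 and 9.17 at 28°C, against 9.91, 10.23 and 10.17 in BAT at 6°C and 10.55, 10.34 and 10.21 at 28°C, a difference of -1.20 (SE 0.26, adjusted p = 0.0024) and -1.58 (SE 0.26, adjusted p = 0.00028). Hoxc4 ranged from 9.70 to 10.33 in sWAT and from 10.87 to 11.20 in BAT, and differed by -0.96 at 6°C and -1.17 at 28°C (SE 0.25, adjusted p = 0.0075 and 0.002).

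Hoxa3, which acts in the thymus and other pharyngeal organs, had 8.98, 8.88 and 8.58 in sWAT at 6°C and 8.21, 8.31 and 8.80 at 28°C, against 9.82, 10.16 and 10.12 in BAT at 6°C and 10.41, 10.22 and 10.33 at 28°C. Every sWAT array was below every BAT array. The difference was -1.22 at 6°C and -1.88 at 28°C (SE 0.30, adjusted p = 0.0059 and 0.00024). This rests on 1 probe set, since the other 3 for Hoxa3 had differences between -1.16 and 0.07 and none was called. Its call at 6°C was lost without any 1 of the 6 arrays compared (adjusted p = 0.011 to 0.027). The call of Hoxc4 at 6°C was lost without any 1 of 10 arrays, the 6 compared among them (adjusted p = 0.01 to 0.029), and at 28°C without array 1 or 2 of sWAT (adjusted p = 0.011). That of Hoxc5 at 6°C was lost without array 2 or 3 of BAT or array 2 of sWAT (adjusted p = 0.011 to 0.012). Hoxa2, of the hindbrain and pharyngeal arches, was called lower at 28°C (-1.58, SE 0.37) and not at 6°C (-1.10), and Hoxc6 lower at 6°C (-0.89, SE 0.18) and not at 28°C (-0.64). The 2 other Hoxc6 probe sets had the opposite sign at 6°C (0.28 and 0.41) and were not called. No gene of the Hoxb cluster from Hoxb1 to Hoxb9 was called between sWAT and BAT at either temperature.

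RNA of other tissues also entered this comparison. Of 10 mammary genes, 9 were called higher in sWAT at both temperatures. Muscle signal varied between the arrays of both depots, and no skeletal muscle gene was called between them at either temperature. The 3 BAT arrays with the highest muscle signal were then left out (arrays 2 and 3 at 28°C and array 2 at 6°C). This leaves 1 BAT array at 28°C and takes that array to vary like the others. Array 2 of sWAT at 28°C, with a muscle sum of 100702, was kept. Fewer Hox genes were called at both temperatures, and the share of all genes called was not counted. Among the Hox genes whose call was lost at 28°C, Hoxa9 had a difference of 3.43, Hoxc8 2.02, Hoxa3 -1.97 and Hoxa2 -1.62. Others, Hoxc4 among them, lost it too. All 9 measured fibroblast and preadipocyte genes were also called higher in sWAT at both temperatures, by a median of 1.78 at 6°C and 1.56 at 28°C, where the medians of all genes were -0.09 and -0.08. The part of fibroblast, mammary and muscle RNA in the Hox differences was not tested.

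**Figure D2:**
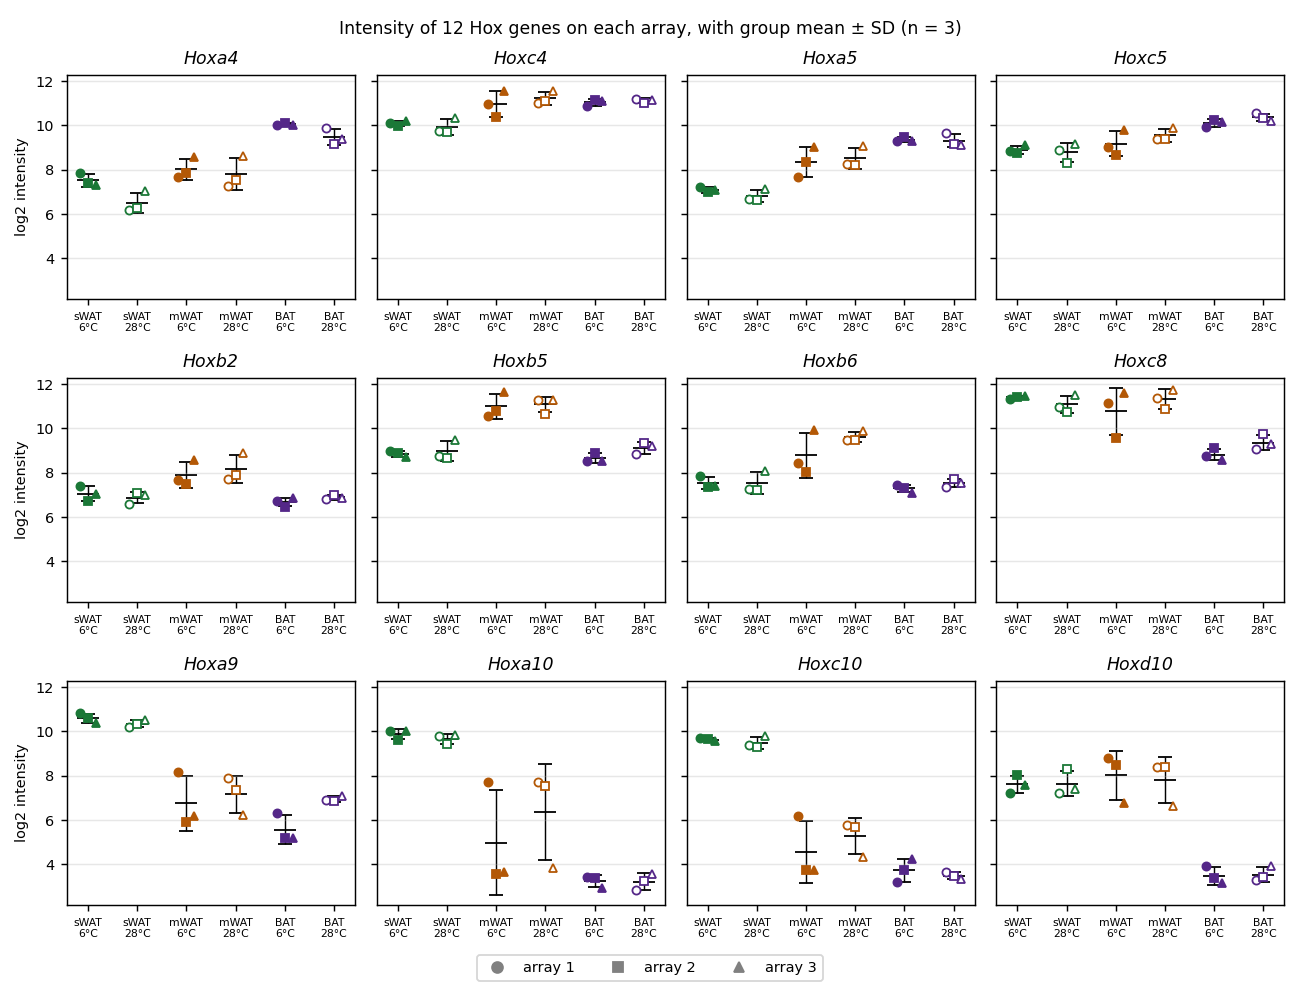
Log2 intensity of 12 Hox genes on each array, in the order sWAT, mWAT and BAT with 6°C before 28°C, where the marker shape is the array, filled markers are 6°C, open markers 28°C, and bars give the mean ± SD of 3 arrays. The sWAT arrays of Hoxa10 lie between 9.41 and 10.04 and the BAT arrays between 2.86 and 3.58, whereas the mWAT arrays spread from 3.59 to 7.71.

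In mWAT against BAT the differences included 4 genes of the Hoxb cluster. This comparison shares its BAT arrays with that of sWAT against BAT. At 6°C, 14 of 33 genes passed, 8 higher and 6 lower in mWAT, and at 28°C 7 genes, 6 higher and 1 lower, where over all genes 40.1% passed at 6°C (18.9% higher and 21.3% lower) and 32.5% at 28°C (14.8% higher and 17.7% lower). The share of Hox genes called was thus near that of all genes at 6°C and below it at 28°C. The 7 called at 28°C were also called at 6°C in the same direction. Hoxb2, Hoxb3, Hoxb5, Hoxb6, Hoxc8 and Hoxd10 were higher in mWAT and Hoxa4 was lower. The median difference over the Hox genes was -0.08 at 6°C and 0.01 at 28°C, against -0.10 and -0.08 over all genes.

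Hoxb5, which acts in the neural crest cells that form the enteric nervous system and in the lung, was higher on every mWAT array than on any array of the other depots. It had 10.56, 10.80 and 11.62 in mWAT at 6°C and 11.29, 10.67 and 11.28 at 28°C, against 8.54, 8.91 and 8.53 in BAT at 6°C and 8.83, 9.33 and 9.20 at 28°C. The difference was 2.34 at 6°C and 1.96 at 28°C (SE 0.28, adjusted p = 8.3e-06 and 5.2e-05). Its neighbour Hoxb6 had 8.42, 8.02 and 9.94 in mWAT at 6°C and 9.47, 9.46 and 9.87 at 28°C, against 7.44, 7.33 and 7.11 in BAT at 6°C and 7.35, 7.72 and 7.54 at 28°C. It was higher by 1.50 (SE 0.37, adjusted p = 0.004) and 2.06 (SE 0.37, adjusted p = 0.00046), and the call at 6°C was lost without array 2 or 3 of BAT at 6°C (adjusted p = 0.011 and 0.017). Hoxb2 and Hoxb3, genes of the hindbrain and pharyngeal arches, were higher by 1.24 and 1.29 at 6°C and by 1.29 and 0.92 at 28°C. Hoxb2 had 7.69, 7.48 and 8.59 in mWAT at 6°C and 7.73, 7.90 and 8.89 at 28°C, against 6.46 to 7.0 in the BAT arrays, with an adjusted p of 0.004 at 6°C and 0.0039 at 28°C. Without array 3 of mWAT it was 0.019 at 6°C and 0.017 at 28°C, and leaving out array 1 or 2 of BAT at 6°C, or array 1 or 3 of BAT at 28°C, also ended the call. Hoxb3 passed with an adjusted p of 0.00052 at 6°C and 0.0075 at 28°C, and at 28°C 12 of the 18 arrays, left out 1 at a time, ended the call (adjusted p up to 0.037, without array 3 of mWAT). The further Hoxb3 probe set was not called (0.29 at 6°C and 0.48 at 28°C), and with the mean of the probe sets neither Hoxb3 call held (adjusted p = 0.014 and 0.03). Hoxb4, which lies between Hoxb3 and Hoxb5, was not called (0.51 at 6°C and 0.32 at 28°C).

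Outside the Hoxb cluster, Hoxd10 made the largest difference. It had 8.79, 8.50 and 6.76 in mWAT at 6°C and 8.41, 8.40 and 6.62 at 28°C, against 3.15 to 3.92 in the BAT arrays, a difference of 4.53 at 6°C and 4.27 at 28°C (SE 0.53, adjusted p = 7.3e-06 and 1.6e-05). Every mWAT array was above every BAT array, with array 3 the lowest at both temperatures. Hoxc8 had 11.13, 9.57 and 11.61 in mWAT at 6°C and 11.36, 10.86 and 11.73 at 28°C, and was 1.95 higher at 6°C and 1.96 higher at 28°C than in BAT (SE 0.40, adjusted p = 0.00099 and 0.0012). Hoxa4 had 7.67, 7.84 and 8.55 in mWAT at 6°C and 7.26, 7.52 and 8.61 at 28°C, and differed from BAT by -2.03 and -1.68 (SE 0.34, adjusted p = 0.00018 and 0.0011). At 6°C alone Hoxd3 and Hoxd9 were called higher (1.57 and 1.87) and Hoxa13, Hoxb13, Hoxc5, Hoxc6 and Hoxd12 lower (-1.31 to -0.75). At 28°C those 7 genes had differences of the same sign and were not called. Of the 7, Hoxd3, Hoxa13, Hoxb13 and Hoxd12 had means below the array median in every group. The 2 other Hoxc6 probe sets had the opposite sign at 6°C and were not called. Without the 3 BAT arrays of high muscle signal, which leaves 1 BAT array at 28°C, fewer Hox genes were called at both temperatures. Hoxa4, Hoxb2, Hoxb3, Hoxb6 and Hoxc8 were among those that lost the call at 28°C. The share of all genes called in that fit was not counted.

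Markers of the gut wall moved with this comparison. All 7 measured smooth muscle genes and all 9 neuronal genes were called higher in mWAT than in BAT at both temperatures, by medians of 3.63 and 5.20 at 6°C and 3.87 and 5.76 at 28°C, as were all 8 mesothelial genes (5.08 and 5.14). Within mWAT, arrays 3 at 6°C (74865) and at 28°C (73237) had the most smooth muscle signal and also the least lymphocyte signal. They had the 2 highest mWAT values for 16 of the 33 Hox genes, in all 4 clusters. The share of all genes with this pattern was not counted, so whether it is particular to Hox genes is unknown. The 16 genes were Hoxb2, Hoxb3, Hoxb4, Hoxb6 and Hoxb7, and also Hoxa2, Hoxa3, Hoxa4, Hoxa5, Hoxa7, Hoxc4, Hoxc5, Hoxc6, Hoxc8, Hoxd3 and Hoxd8. Hoxb5 had 11.62 and 11.28 on these 2 arrays. Without both arrays 3, Hoxb5 differed from BAT by 2.02 at 6°C and 1.86 at 28°C (adjusted p = 2.7e-05 and 6.8e-05). The mWAT arrays kept in that fit also had high smooth muscle sums, at least 47070 against at most 7097 in BAT. Markers of other tissues also differed. Fibroblast and preadipocyte genes summed to 43986 to 58972 in mWAT and 13030 to 26441 in BAT. Skeletal muscle genes summed to 1317 to 2893 in mWAT and 3114 to 106523 in BAT. The part of gut wall, fibroblast and muscle RNA in the Hox differences between mWAT and BAT was not tested.

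The mWAT arrays of 1 group also spread widely in groups 9 and 10. Hoxa10 had 7.71, 3.59 and 3.67 in mWAT at 6°C and 7.71, 7.52 and 3.86 at 28°C, an SD of 2.35 and 2.17, where the median SD of the 33 genes was 0.50 and 0.36 in these groups and between 0.22 and 0.28 in the other 4 groups. Array 3 was close to the BAT arrays at both temperatures, and array 2 at 6°C as well. Hoxc10 followed the same arrays, with 6.20, 3.74 and 3.74 in mWAT at 6°C and 5.79, 5.67 and 4.33 at 28°C, and so did Hoxa9, with 8.19, 5.93 and 6.17 at 6°C and 7.90, 7.35 and 6.23 at 28°C. Hoxd10 and Hoxd9 were low in arrays 3 but not in array 2 at 6°C. The arrays concerned are those that stood apart in lymphocyte genes (arrays 3) and in pancreas genes (array 2 at 6°C), and the part of these in the Hox levels was not tested. With all arrays, Hoxa10 was not called between mWAT and BAT (1.74 at 6°C and 3.14 at 28°C, SE 0.98). Without both arrays 3 it was called at 28°C (4.39, SE 0.78, adjusted p = 0.00052) and not at 6°C (2.40, adjusted p = 0.02). In that fit 14 Hox genes in place of 7 were called between mWAT and BAT at 28°C, and the share of all genes called was not counted. Hoxa10, Hoxc10 and Hoxd9 were added as higher and Hoxa3, Hoxa5, Hoxc5 and Hoxc6 as lower.

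The 2 white depots differed from each other mainly in groups 5, 9 and 10. Between sWAT and mWAT, whose arrays also enter the comparisons with BAT, 6 Hox genes passed at 6°C, 4 higher and 2 lower in sWAT, and 7 at 28°C, 3 higher and 4 lower, where over all genes 10.2% passed at 6°C (5.17% higher and 5.01% lower) and 7.87% at 28°C (3.05% higher and 4.82% lower). The share of Hox genes was larger at both temperatures. Hoxa9, Hoxc9 and Hoxc10 were higher and Hoxa5 and Hoxb5 lower in sWAT at both temperatures. Hoxc10 differed by 5.07 at 6°C and 4.23 at 28°C (SE 0.53, adjusted p = 1.6e-05 and 8e-05), Hoxa9 by 3.83 and 3.19 (SE 0.51, adjusted p = 0.00014 and 0.00064). For both genes the lowest sWAT array, 9.31 and 10.20, was above the highest mWAT array, 6.20 and 8.19. Hoxc9 had 9.14, 9.12 and 9.28 in sWAT at 6°C and 8.80, 9.03 and 9.26 at 28°C, against 7.26, 5.94 and 7.0 in mWAT at 6°C and 7.05, 6.78 and 7.31 at 28°C. It was higher by 2.44 at 6°C and 1.98 at 28°C (SE 0.28, adjusted p = 3.3e-05 and 2e-04). Hoxa10 was called at 6°C (4.89, SE 0.98, adjusted p = 0.0036) and not at 28°C (3.31, SE 0.98).

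On the lower side, Hoxb5 had 8.98, 8.88 and 8.71 in sWAT at 6°C and 8.75, 8.68 and 9.49 at 28°C, and was lower than in mWAT, with a difference of -2.14 at 6°C and -2.11 at 28°C (SE 0.28, adjusted p = 0.00011 and 0.00012). Hoxb6 was called lower in sWAT at 28°C (-2.06, SE 0.37, adjusted p = 0.0017) and not at 6°C (-1.26), and Hoxc4 likewise at 28°C (-1.29, SE 0.25, adjusted p = 0.0029) and not at 6°C (-0.88). Hoxa5 had 7.68, 8.37 and 9.02 in mWAT at 6°C and 8.26, 8.19 and 9.07 at 28°C, and the difference of sWAT was -1.25 at 6°C (SE 0.29, adjusted p = 0.0095) and -1.70 at 28°C (SE 0.29, adjusted p = 0.0012). The call at 6°C was narrow, and leaving out any 1 of 16 of the 18 arrays ended it, with an adjusted p up to 0.038. Hoxd10, which set both white depots apart from BAT, differed between them by -0.41 at 6°C and -0.17 at 28°C (95% intervals -1.54 to 0.72 and -1.30 to 0.96).

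**Figure D3:**
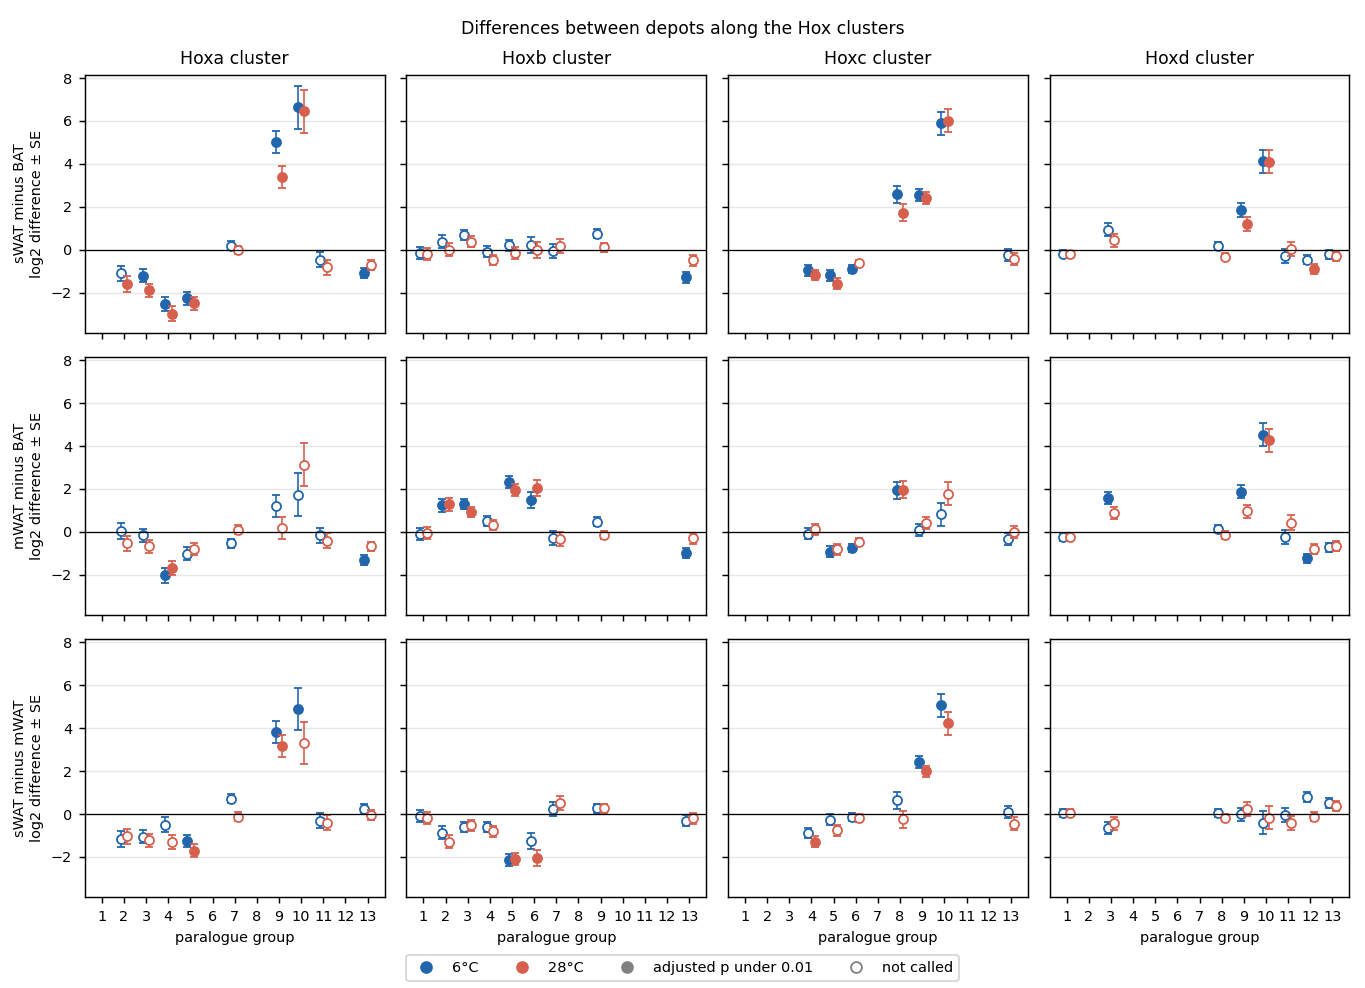
Log2 difference between depots ± SE (y axis) for each Hox gene by paralogue group (x axis) in each cluster, for sWAT minus BAT, mWAT minus BAT and sWAT minus mWAT, with filled points past an adjusted p of 0.01, blue for 6°C and red for 28°C. In the Hoxa and Hoxc clusters sWAT is below BAT in groups 3 to 5 and above it in groups 8 to 10, and in the Hoxb cluster mWAT is above BAT at groups 2, 3, 5 and 6.

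By position, sWAT against BAT gave no gene higher and 3 lower of 10 at 6°C in groups 1 to 4, 1 higher and 3 lower of 9 in groups 5 to 8, and 6 higher and 2 lower of 14 in groups 9 to 13. At 28°C these counts were 0 and 4, 1 and 2, and 6 and 1. mWAT against BAT gave 3 higher and 1 lower, 3 and 2, and 2 and 3 at 6°C, and 2 and 1, 3 and 0, and 1 and 0 at 28°C. For sWAT against mWAT they were 0 and 0, 0 and 2, and 4 and 0 at 6°C, and 0 and 1, 0 and 3, and 3 and 0 at 28°C. Over all genes 13.4% were higher and 13.4% lower at 6°C, and 13% and 14.5% at 28°C, for sWAT against BAT. The shares were 18.9% and 21.3%, and 14.8% and 17.7%, for mWAT against BAT. For sWAT against mWAT the shares were 5.17% and 5.01%, and 3.05% and 4.82%. Differences between the ranges of groups were not tested. The switch from lower to higher in sWAT lay between Hoxa5 and Hoxa9 in the Hoxa cluster, with Hoxa7 at 0.19 at 6°C and -0.02 at 28°C, and between Hoxc5 and Hoxc8 in the Hoxc cluster, where the probe sets of Hoxc6 differed in sign at 6°C. In the Hoxd cluster no gene below Hoxd9 was called between sWAT and BAT in either direction, and Hoxd8 differed by 0.19 at 6°C and -0.32 at 28°C.

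Cold exposure moved no Hox gene past the threshold in any depot. Between 6°C and 28°C, 0 of 33 genes passed with limma in sWAT, mWAT and BAT, where over all genes 0.742%, 0.0055% and 5.33% passed, and 3, 1 and 6 Hox genes had an unadjusted p below 0.05. The 95% interval of the difference stayed within a 2-fold change either way for 23 genes in sWAT, 26 in mWAT and 20 in BAT. The shares of all genes with an unadjusted p below 0.05 or with such an interval were not counted. In the same sWAT comparison 6 of 8 brown adipocyte genes were called higher (median 2.37). The genes furthest from 0 were picked by their values. In sWAT this was Hoxa4, with 7.87, 7.40 and 7.33 at 6°C against 6.21, 6.26 and 7.03 at 28°C. The arrays did not overlap, and the difference of 1.03 (SE 0.34) had an adjusted p of 0.17. In BAT it was Hoxa9, with 6.31, 5.18 and 5.20 at 6°C against 6.92, 6.85 and 7.11 at 28°C, a difference of -1.40 (SE 0.51, adjusted p = 0.09). The SE is shared by all groups, and in the fit without both mWAT arrays 3 and array 2 of mWAT at 6°C the same difference was called (SE 0.27, adjusted p = 0.0051). In mWAT Hoxa10 had -1.38 with a 95% interval of -3.48 to 0.73. The median difference over the 33 genes was 0.07 in sWAT, -0.12 in mWAT and -0.05 in BAT, against 0.00, 0.01 and 0.01 over all genes.

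The cold responses of the depots were also set against each other in interaction contrasts. For sWAT minus BAT, mWAT minus BAT and sWAT minus mWAT, 0 of 33 Hox genes passed with limma, where over all genes 0.467%, 0.566% and 0% passed, and 3, 2 and 2 Hox genes had an unadjusted p below 0.05. The smallest adjusted p were 0.31, 0.29 and 0.84. The difference furthest from 0 between sWAT and BAT was 1.65, for Hoxa9, and between sWAT and mWAT 1.58, for Hoxa10. These intervals were wide, and 7, 9 and 11 genes had a 95% interval within a 2-fold change. Here too, the shares of all genes at the unadjusted threshold and within these limits were not counted.

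**Figure D4:**
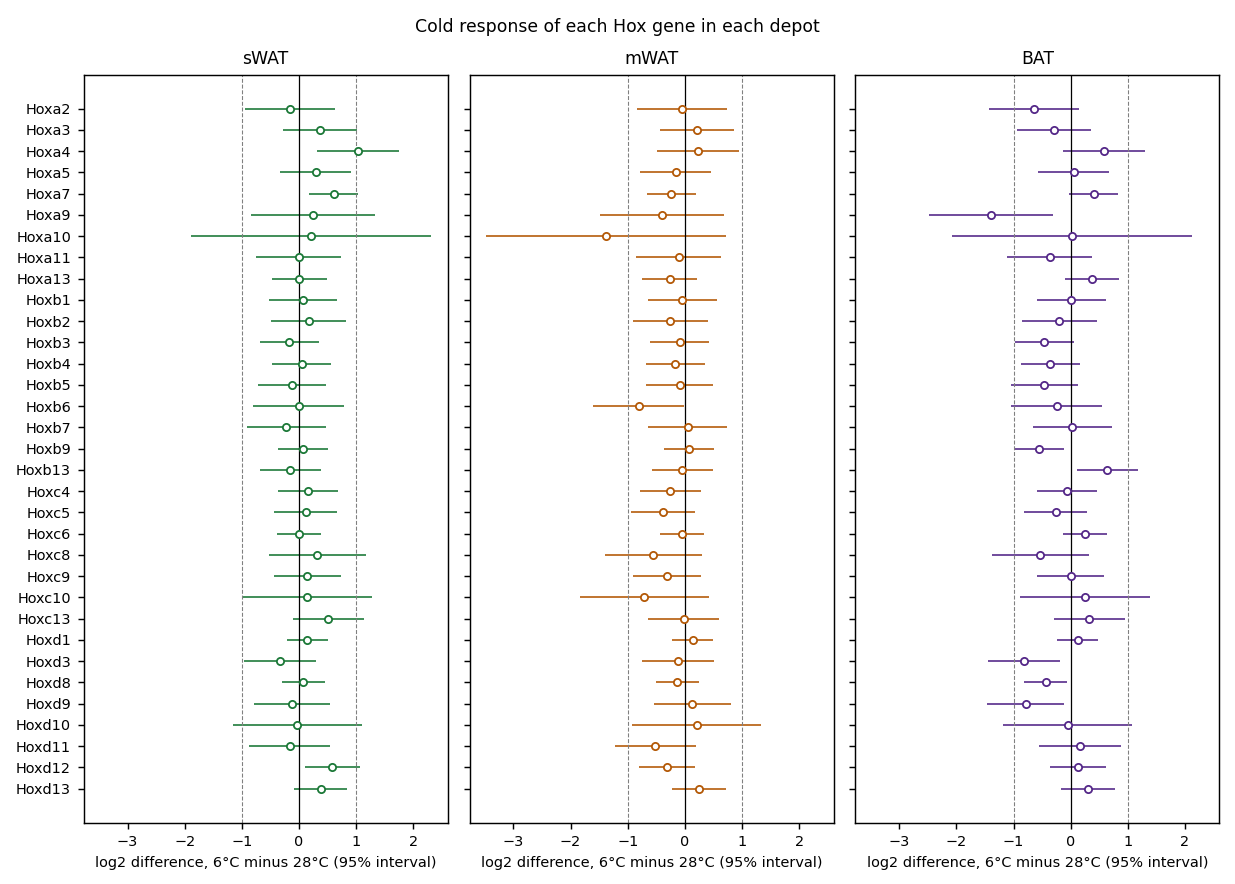
Log2 difference between 6°C and 28°C with its 95% interval (x axis) for each Hox gene (y axis) in sWAT, mWAT and BAT, 3 arrays a group, with dashed lines at a 2-fold change. No gene passed an adjusted p of 0.01, and the widest intervals are those of Hoxa10.

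Of the 33 genes 11 had further probe sets. For Hoxa4, Hoxa5, Hoxa9 and Hoxc5 these carried the depot differences too. A further Hoxa9 probe set was called higher in sWAT than in BAT by 2.11 at 6°C and 1.40 at 28°C, and the further Hoxa5 probe set lower (-2.04 and -2.36). The further Hoxa10 probe set had low signals, with group means of 3.34 to 4.93, and was not called between sWAT and BAT (0.48 and 1.11). For Hoxc6 the probe set of highest signal was lower in mWAT than in BAT (-0.75 at 6°C, and -0.45 and not called at 28°C), while the 2 others were higher, by 0.49 and 0.50 at 6°C and 0.81 and 0.85 at 28°C, and not called. No direction is therefore given for Hoxc6 in sWAT or mWAT beyond that probe set.

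Transcripts of the TALE homeodomain proteins, which bind DNA together with Hox factors, were measured for 8 genes. Of these, 5 were called higher in mWAT than in BAT at 6°C and 6 at 28°C, with none lower (median 1.22 and 1.12, against -0.10 and -0.08 over all genes, of which 18.9% and 14.8% were higher). The markers of smooth muscle, neurons and mesothelium were higher in the same comparison, and their part in it was not tested. Pbx3 was higher by 1.63 at 6°C and 2.10 at 28°C, Meis1 by 1.85 and 2.16, and Meis2 by 1.40 and 1.96. The same 3 genes were lower in sWAT than in mWAT at both temperatures (-2.56 to -1.69). Against BAT, 2 of 8 were higher and 1 lower in sWAT at 6°C and 1 and 1 at 28°C, where over all genes 13.4% were higher and 13.4% lower at 6°C and 13% and 14.5% at 28°C. Among 3 noncoding RNAs of the clusters, Hoxb5os, from the opposite strand at Hoxb5, was called. It was 3.18 higher in mWAT than in BAT at 6°C and 2.39 at 28°C (SE 0.39, adjusted p = 1.2e-05 and 2e-04), lower in sWAT than in mWAT (-2.65 and -2.56), and not called between sWAT and BAT. Whether the probe sets of Hoxb5 and Hoxb5os each read 1 strand was not tested.

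Genes just outside the clusters were read in the same way. Of 22 genes that flank the clusters, 2 were higher and 4 lower in sWAT than in BAT at 6°C and 1 and 5 at 28°C, and 4 higher and 7 lower in mWAT than in BAT at 6°C and 1 and 7 at 28°C. Over all genes 13.4% were higher and 13.4% lower at 6°C and 13% and 14.5% at 28°C in sWAT, and 18.9% and 21.3% at 6°C and 14.8% and 17.7% at 28°C in mWAT. Skap1, a T cell adaptor beside the Hoxb cluster, was 3.72 and 3.98 higher in sWAT and 3.46 and 3.57 higher in mWAT than in BAT (6°C and 28°C), and the lymphocyte genes summed to 7615 to 27976 in sWAT, 1718 to 32188 in mWAT and 585 to 1025 in BAT. Mtx2, a mitochondrial import gene beside the Hoxd cluster, was lower than in BAT in sWAT (-1.10 and -1.35) and in mWAT (-1.72 and -1.41).

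Regulators of the clusters were counted beside the same shares of all genes as for the flanking genes (13.4% higher and 13.4% lower at 6°C and 13% and 14.5% at 28°C in sWAT, 18.9% and 21.3% at 6°C and 14.8% and 17.7% at 28°C in mWAT). Of 23 Polycomb genes, whose complexes keep Hox genes silent, 4 were higher and 3 lower in sWAT than in BAT at 6°C and 3 and 0 at 28°C, and 8 and 4 in mWAT than in BAT at 6°C and 2 and 1 at 28°C. Of 12 genes of the MLL complexes and H3K27 demethylases, which keep them active, 2 were higher and 1 lower in sWAT at both temperatures, and 3 and 2 at 6°C and 2 and 1 at 28°C in mWAT. Against BAT the median of both lists stayed between -0.03 and 0.21, where that of all genes was between -0.10 and -0.08. The 6 Cdx and ParaHox genes all had negative differences from BAT in both white depots at both temperatures. Their signals were low, with a mean log2 intensity of 3.96 to 4.33 in sWAT, 4.10 to 4.35 in mWAT and 4.48 to 4.78 in BAT. The array medians were 6.97 or higher, and whether these signals are above background is unknown. Cdx1 was called lower in sWAT (-0.90) and mWAT (-0.84) at 6°C, Cdx2 in sWAT at 28°C (-0.93), and Pdx1 in mWAT at 6°C (-0.75) and in both sWAT (-0.71) and mWAT (-0.58) at 28°C. Among 16 genes of retinoic acid, a signal that sets Hox domains in the embryo, 6 were higher and 3 lower in sWAT than in BAT at 6°C and 5 and 2 at 28°C, and 5 and 3, and 4 and 4, in mWAT. Aldh1a2, which makes retinoic acid, was 4.94 and 4.67 higher in mWAT than in BAT and lower in sWAT than in mWAT (-3.56 and -3.41), and the binding protein gene Crabp1 was 3.85 and 4.83 higher in sWAT than in BAT. Among the lower genes, Rxrg differed from BAT by -1.04 and -1.83 in sWAT and by -2.14 and -2.33 in mWAT. Rarb differed by -1.37 and -1.85 in sWAT and by -1.50 and -1.32 in mWAT. Markers of other tissues, mesothelium in mWAT among them, also differed between these depots, and their part was not tested.

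Other transcription factors of position also differed between the depots. Of 26 measured, 9 were higher and 3 lower in sWAT than in BAT at 6°C and 6 and 3 at 28°C, 8 and 7 in mWAT than in BAT at both temperatures, and 7 and 5 at 6°C and 8 and 5 at 28°C in sWAT than in mWAT. Over all genes 13.4% and 13.4% at 6°C and 13% and 14.5% at 28°C were higher and lower in sWAT than in BAT, 18.9% and 21.3%, and 14.8% and 17.7%, in mWAT than in BAT, and 5.17% and 5.01%, and 3.05% and 4.82%, in sWAT than in mWAT. Zic1 was lower than in BAT in sWAT (-6.66 and -6.83) and in mWAT (-7.27 and -7.13). Emx2 was 4.20 and 3.33 higher in sWAT than in BAT, and Shox2, of the proximal limb, 6.61 and 5.94 higher in sWAT than in mWAT. Tbx15, a marker gene of subcutaneous preadipocytes, was 4.21 and 4.20 higher in sWAT than in mWAT, whereas Tcf21 and Wt1, genes of visceral mesothelium and mesenchyme, were lower (-5.25 and -5.65 for Tcf21, -5.35 and -6.52 for Wt1). In this list 1 of 26 genes was called in the cold, Shox2 in BAT (1.02), where over all genes 5.33% were called in BAT.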

How the data were processed

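Total RNA of 18 samples, 3 per depot and temperature, had been amplified with a NuGEN kit and hybridised to Affymetrix arrays. The authors background-adjusted, summarised and normalised the probe values with the Bioconductor package affy, and the deposited table holds linear intensities per probe set. The algorithm is not given in the sources used here, which also name different array types. The deposited table carries no detection calls, so a fold against a low intensity is a ratio of intensities.

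The intensities were put on the log2 scale. GEO's platform annotation gave 1 gene for 34945 of the 45037 probe sets tested, several for 932 and none for 9160, and 64 control probe sets were left out. The contrasts (between depots at each temperature, between temperatures in each depot, and between the cold responses) were fitted together over the 6 groups with limma 3.58.1 (R 4.3.3; 12 residual and 2.64 prior degrees of freedom). P-values were moderated, two-sided and adjusted by Benjamini-Hochberg over the 45037 probe sets, and a gene was called at an adjusted p under 0.01. They rest on 3 arrays a group, so their number limits the precision. Counts over all genes use 1 probe set a gene, the one of highest mean. Differences are log2 values, the group named first minus the other.

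Genes described in full had to be called at both temperatures in a depot contrast with arrays that did not overlap, at most 4 per range of paralogue groups and contrast, by mean absolute difference. The genes, lists and rules were chosen with earlier results of these data known. Probe sets that name 2 Hox genes were not used. The fit was tested on simulated data. Promoter windows came from a RefSeq table (GRCm38.p6) and were searched by exact match. Alternatives covered the threshold, a minimum fold, median centring, quantile normalisation, a filter on dim probe sets, the mean of a gene's probe sets, a variance trend, fits of the compared groups alone, and leaving out arrays.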

Additional observations from a re-analysis of the deposited data

How the results depend on the processing

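No paired analysis was possible because the labels give no replicate numbers shared by groups, and numbers here follow accession order. No named difference changed sign under any alternative run. With an adjusted p under 0.05, 16 Hox genes were called for mWAT minus BAT at 28°C, 11 for sWAT minus mWAT at 6°C and 11 at 28°C. With the compared groups alone, 8 were called for mWAT minus BAT at 6°C, and 3 at 6°C and 4 at 28°C for sWAT minus mWAT. The share of all genes called was not counted under any alternative. The next 3 alternatives were chosen after seeing the data. Without both mesenteric arrays 3, 14 were called for mWAT minus BAT at 28°C, and without array 2 at 6°C as well, 14 again and 1 between 6°C and 28°C in BAT (Hoxa9, adjusted p = 0.0051). Without the 3 BAT arrays of high muscle signal, 7 were called for sWAT minus BAT at 28°C, and 9 at 6°C and 2 at 28°C for mWAT minus BAT. The other counts stayed within 1.5 times. With 1 array left out, the counts ran from 11 to 15 at 6°C and 10 to 16 at 28°C for sWAT minus BAT, 10 to 15 and 5 to 10 for mWAT minus BAT, and 4 to 6 and 5 to 9 for sWAT minus mWAT, and stayed at 0 for the contrasts of temperature and of cold responses. Of 44 named differences, 34 kept their call without any 1 array, and the other 10 are given with their genes in the results. Over all alternatives, 20 of the 44 lost the call in at least 1. With the compared groups alone, these included Hoxa5 at 28°C (adjusted p = 0.019), Hoxa9 at 6°C (0.011) and Hoxb5 at 28°C (0.01) for sWAT minus mWAT. For mWAT minus BAT they included Hoxc8 at 6°C (0.026) and Hoxa4 at 28°C.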
